A study of Homo sapiens with 12 samples.

Results

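The 9 genes described here code for the cap'n'collar transcription factors NRF1, NRF2 and NRF3 (genes NFE2L1, NFE2L2 and NFE2L3), the NRF2 inhibitor KEAP1, the repressors BACH1 and BACH2, and the small MAF proteins MAFF, MAFG and MAFK. They were picked by gene symbol, with earlier results of these data known, and are 9 of the 43735 genes in the deposited count table. The gene lists below were chosen in the same way, so shares of all genes printed beside members and lists are a description only. All 9 passed the filter on low counts, which kept 14085 genes. NRF1 here means the product of NFE2L1, not nuclear respiratory factor 1.

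RNA was sequenced from MM1S and MM1R, human multiple myeloma cell lines derived from the same patient that are sensitive (MM1S) and resistant (MM1R) to glucocorticoids. Each line was left untreated or exposed for 3 h to 1 µM withaferin A (WA), a plant steroidal lactone that binds cysteines covalently, with 3 cultures in each of the 4 groups. The cultures of a group differed in passage number, which was 16, 22 and 23 for MM1S and 4, 6 and 7 for MM1R, and each passage gave an untreated and a WA culture. The lines shared no passage number, so that line and passage cannot be told apart. The labels call the controls untreated and name no vehicle, and both lines come from the same donor.

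The libraries held 17625110 to 19368343 counted reads. All 8 plasma cell markers were tested, with summed levels from 9464 to 17840 CPM (the count of a gene scaled to a common library size). A single plasma cell marker had up to 243590 reads in a culture of untreated MM1R, so the sums weigh the highest genes. The 4 B cell markers had at most 3 reads in any culture. Of the fibroblast markers, COL1A2 and DCN had at most 3 reads, whereas the summed level, almost all COL1A1, was 0.497 to 2.34 CPM in untreated cultures and 2.30 to 17.9 CPM with WA, and COL1A1 was called higher in both lines. T cell markers summed to 3.83 to 11.9 CPM, erythroid markers to 3.36 to 9.55, myeloid markers to at most 0.669 and epithelial markers to at most 1.09 CPM. Of the 3 erythroid markers 2 had at most 3 reads in any culture, as did 1 each of the T cell, myeloid and epithelial markers. The part of COL1A1 in the results below was not tested.

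NRF2 is held in the cytoplasm by KEAP1, which hands it to a CUL3 ubiquitin ligase for degradation. Electrophiles that modify cysteines of KEAP1 let NRF2 escape, pair with a small MAF protein and bind antioxidant response elements (AREs) in genes of glutathione, thioredoxin and iron metabolism. BACH1 occupies the same elements as a repressor, also with a small MAF partner, until heme removes it. NRF1 is an endoplasmic reticulum protein that drives proteasome genes after it has been released and cleaved, and BACH2 represses the plasma cell programme in B cells. Much of this control acts on protein, which a count of mRNA does not show.

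Promoter sequences were looked up to see where the members could themselves be read by the factors of this pathway. RefSeq windows on GRCh38.p14, from 250 bases before to 50 bases after a transcription start, were at hand for 8 of the 9 members, with 14 windows in all, and MAFK had none in the table. The searched motifs were the ARE core TGACNNNGC, the heat shock element GAANNTTC and the AP-1 site TGANTCA, each on both strands. The CRE palindrome TGACGTCA was added after the windows had been read. The ARE core stood in windows of 2 members (MAFF and KEAP1), the AP-1 site in 1 (BACH1), the CRE in 2 (MAFF and BACH2) and the heat shock element in none. Counted by window, the ARE core stood in 2 of the 14 and the CRE in 2 of the 14. Of all 35116 windows in the table, 13.3% held the ARE core, 6.77% the heat shock element, 7.71% the AP-1 site and 1.85% the CRE. These shares are of windows and, except for the CRE, compare with the counts by window, not with those by member. Since the CRE was added after these windows had been read, its count cannot be weighed against its share.

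The stretches around these matches are printed from the gene's own strand, with the matched letters in capitals. MAFF, BACH1 and BACH2 are among the members whose mRNA was higher with WA in every culture pair, and KEAP1 was lower in every pair. NFE2L1 and MAFG were also higher and NFE2L3 lower in every pair, but their windows held none of the searched motifs. The MAFF stretches lie before the upstream one of its starts. The first, chr22:38201862-38201890 (plus strand), holds an ARE core on the opposite strand whose match begins 122 bases before that start. The second, chr22:38201930-38201957, holds a CRE that begins 54 bases before it. The KEAP1 stretches at chr19:10502807-10502835 and chr19:10502784-10502812 (minus strand) lie before the downstream one of its starts, and the second match reads on the opposite strand. The BACH1 stretch is chr21:29298863-29298891 (plus strand), before the most upstream of its starts, and the BACH2 stretch chr6:90296907-90296936 (minus strand). The MAFF and KEAP1 stretches also occur in annotated transcripts. A match describes letters and is not a measured binding site.
MAFF, ARE core: cttccaggggGCGGGGTCAtacgggggcg
MAFF, CRE: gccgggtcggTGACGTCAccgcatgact
KEAP1, ARE core: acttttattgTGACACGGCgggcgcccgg
KEAP1, ARE core on the opposite strand: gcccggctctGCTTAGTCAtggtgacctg
BACH1, AP-1 site: cgcggaaggagTGAGTCAcctgaccgctg
BACH2, CRE: tggggagcgggTGACGTCAgcgccgaatgt

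To compare mRNA levels between genes, CPM was divided by the summed exon length in kb, which gives CPM per kb. In untreated MM1S the order was NFE2L1 (50.7 ± 12.3 CPM per kb, SD, n = 3), NFE2L3 (40.8 ± 8.39), KEAP1 (38.5 ± 1.57), MAFG (18.4 ± 1.76), BACH1 (8.38 ± 0.599), NFE2L2 (6.54 ± 0.774), MAFK (3.61 ± 0.172), MAFF (2.72 ± 0.705) and BACH2 (0.495 ± 0.0947). The values of NFE2L3 overlapped those of NFE2L1 and of KEAP1, and no other neighbours in this order overlapped. In untreated MM1R the order was the same except that KEAP1 (43.3 ± 3.73) stood above NFE2L3 (37.4 ± 3.7). There NFE2L1 overlapped KEAP1, KEAP1 overlapped NFE2L3, and BACH1 overlapped NFE2L2. After WA, MAFG stood above NFE2L3 and MAFF above MAFK by their means in both lines. The order depended on the length used. With the longest transcript as length, the mean of KEAP1 was above that of NFE2L1 in untreated MM1R and above that of NFE2L3 in untreated MM1S. NFE2L2 moved furthest. Its annotated exons sum to 14975 bases but its longest transcript has 5104, and on the latter length it stood at 19.2 CPM per kb in untreated MM1S, in the fourth place.

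**Figure D1:**
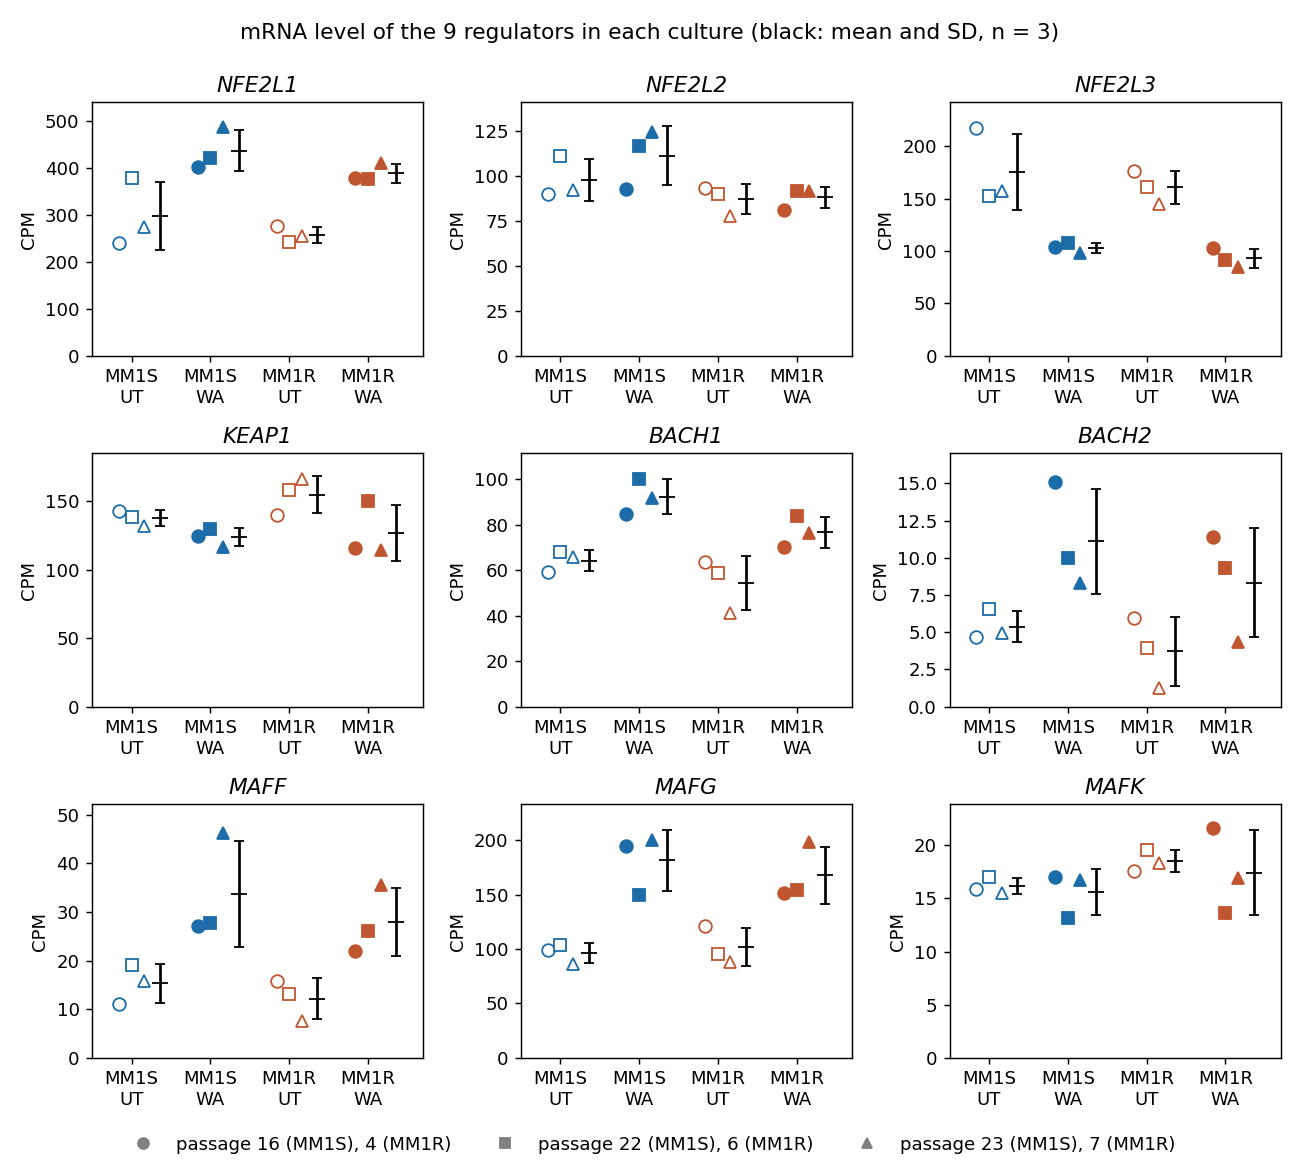
Each panel plots 1 gene, with mRNA level in CPM on an axis that starts at 0 and the 4 groups side by side; points are cultures (open untreated, filled WA, shape by passage) and black marks the mean and SD of 3 cultures. The WA cultures of NFE2L1, BACH1, MAFF and MAFG lie above and those of NFE2L3 below the untreated cultures of the same line, while those of NFE2L2 and MAFK overlap them.

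With WA, 5 of the 9 members changed in MM1R and the same 5 in MM1S. NFE2L1, BACH1, MAFF and MAFG were higher and NFE2L3 was lower. The count fell to 2 in MM1R without passage 7 of either treatment. In MM1S it fell to 2 without untreated passage 16 or 23 or WA passage 23. Calls over all genes varied too in the 12 fits that left out a library. They ran from 950 to 2396 in MM1R and from 726 to 1621 in MM1S, beside 1973 and 1476 with all libraries. With passage number as a block the count of members was 7 in MM1R and 6 in MM1S, beside 29.1% and 24.1% of all genes. Among all 14085 genes, 14.0% were called in MM1R and 10.5% in MM1S at an adjusted p of 0.05 (edgeR quasi-likelihood test, Benjamini-Hochberg). By direction these were 7.55% higher and 6.46% lower in MM1R and 6.25% higher and 4.23% lower in MM1S. An unadjusted p under 0.05 was reached by 7 members in MM1R and 6 in MM1S, beside 28.4% and 24.9% of all genes. The untreated and WA cultures did not overlap for 5 members in MM1R and 7 in MM1S, beside 33.3% and 30.3% of all genes. The median log2 fold change over the 9 members was 0.49 in MM1R and 0.52 in MM1S, beside 0.01 over all genes tested in each line. In bulk RNA a change in the number of cells that use a gene and a change in the RNA per cell cannot be told apart.

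NFE2L1, on chromosome 17 (46125691 to 46138907 in GRCh37, plus strand, 6 exons), was the member with the highest CPM in each group. In MM1R it stood at 275, 242 and 255 CPM in the untreated cultures of passages 4, 6 and 7 and at 378, 376 and 411 CPM with WA. In MM1S of passages 16, 22 and 23 it stood at 240.4, 379 and 274.5 CPM untreated and at 402, 421 and 487 CPM with WA. The untreated and WA cultures did not overlap in either line, and passage 22 of MM1S had both the highest untreated level and the smallest rise. The fitted log2 fold change was 0.59 (SE 0.15, edgeR adjusted p = 0.0168) in MM1R and 0.55 (SE 0.15, edgeR adjusted p = 0.0299) in MM1S. The MM1R call was lost without the untreated culture of passage 6 or 7 or the WA culture of passage 7 (adjusted p up to 0.0894), and the MM1S call without untreated MM1R passage 6, untreated MM1S passage 16 or 23 or WA MM1S passage 23 (up to 0.122), or with only the 6 MM1S libraries in the fit (0.0936).

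NFE2L2, the gene of NRF2, lies on chromosome 2 (178083395 to 178257484, minus strand, 5 exons). Its untreated cultures stood at 93.4, 90.3 and 77.7 CPM in MM1R and its WA cultures at 81.4, 91.7 and 91.5 CPM, so that the groups overlapped. In MM1S the values were 90.3, 111 and 92.4 CPM untreated and 92.9, 117 and 125 CPM with WA, which overlapped as well. No change passed the test. The log2 fold change was 0.02 in MM1R (95% confidence interval -0.26 to 0.30, edgeR adjusted p = 0.959) and 0.19 in MM1S (-0.09 to 0.46, adjusted p = 0.420). These intervals leave room for a rise of up to 0.46 on the log2 scale. Exons of HNRNPA3 on the opposite strand cover 23.4% of the NFE2L2 exons, and the strand setting of the counting is not given in the sources used here. Exons of a long noncoding RNA on the same strand cover 13.6% of the NFE2L2 exons.

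NFE2L3, which codes for the less studied NRF3, lies on chromosome 7 (26191818 to 26226757, plus strand, 4 exons) and was the only member that fell by the test in either line. In MM1R it stood at 176.5, 161 and 145 CPM untreated and at 103, 91.0 and 84.2 CPM with WA. The MM1S values were 217, 153 and 157 CPM untreated and 103, 107 and 97.7 CPM with WA. Every WA culture was below every untreated culture of both lines. WA changed it on the log2 scale by -0.79 (SE 0.14, edgeR adjusted p = 0.00234) in MM1R and -0.77 (SE 0.14, edgeR adjusted p = 0.00327) in MM1S. Neither call was lost when any of the 12 libraries was left out. Exons of HNRNPA2B1 on the opposite strand cover 28.1% of the NFE2L3 exons.

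KEAP1, the adaptor that holds NRF2, lies on chromosome 19 (10596801 to 10614234, minus strand, 6 exons). It stood at 140.2, 158 and 166 CPM in untreated MM1R and at 116, 150.2 and 114 CPM with WA, where passage 6 stayed near its untreated level. In MM1S it stood at 143, 138 and 132 CPM untreated and at 125, 129.7 and 116.5 CPM with WA, and there the groups did not overlap. The value was lower with WA in 6 of 6 culture pairs, but the change did not pass the test, with a log2 fold change of -0.29 (95% confidence interval -0.54 to -0.03, edgeR adjusted p = 0.124) in MM1R and -0.16 (-0.41 to 0.10, adjusted p = 0.466) in MM1S. A fit with passage number as a block called KEAP1 lower in MM1R (log2 fold change -0.30, edgeR adjusted p = 0.0299) and not in MM1S (-0.16, adjusted p = 0.244). It was also called in MM1R without the WA culture of passage 6 (-0.41, adjusted p = 0.0355).

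BACH1, the repressor of ARE genes, lies on chromosome 21 (30566392 to 31003071, plus strand, 5 exons). It stood at 63.5, 58.9 and 41.1 CPM in untreated MM1R and at 70.2, 83.9 and 76.2 CPM with WA. MM1S cultures had 59.1, 67.8 and 65.8 CPM untreated and 84.7, 100.2 and 91.9 CPM with WA. All WA cultures were above all untreated cultures of both lines. Fitted log2 fold changes were 0.49 (SE 0.15, edgeR adjusted p = 0.0372) in MM1R and 0.52 (SE 0.15, edgeR adjusted p = 0.0351) in MM1S. Exons of GRIK1-AS2 on the same strand cover 14% of the BACH1 exons, and those of LINC00189 cover 3.94%.

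The BACH1 calls stood close to the limit. In MM1R the call was lost in 8 of the 12 fits that left out a library, namely untreated MM1R passages 6 and 7, each WA culture of MM1R, untreated MM1S passages 22 and 23 and WA MM1S passage 23, with adjusted p up to 0.117 and a log2 fold change of 0.33 without untreated passage 7. In MM1S it was lost in 7 of 12, namely passage 6 of MM1R (either treatment), the 3 untreated MM1S cultures and WA MM1S passages 22 and 23, with adjusted p up to 0.1045. Blocking by passage gave an adjusted p of 0.0066 in MM1R and 0.00666 in MM1S (edgeR).

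The ratio of BACH1 to NFE2L2 CPM, a repressor against the activator it competes with, was computed in each culture as a description. It was 0.679, 0.652 and 0.529 in untreated MM1R and 0.864, 0.915 and 0.833 with WA. In MM1S it was 0.654, 0.609 and 0.712 untreated and 0.912, 0.857 and 0.737 with WA. No untreated culture reached the lowest WA culture. With 3 cultures against 3, an exact permutation test cannot go below p = 0.1.

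BACH2, the repressor of the plasma cell programme, lies on chromosome 6 (90636247 to 91006562, minus strand, 9 exons) and was the lowest member, with 22 to 278 reads in a culture. It stood at 5.94, 3.95 and 1.28 CPM in untreated MM1R and at 11.4, 9.28 and 4.32 CPM with WA, so that passage 7 with WA overlapped the untreated cultures. In MM1S it stood at 4.66, 6.56 and 4.92 CPM untreated and at 15.1, 9.98 and 8.30 CPM with WA, with no overlap. BACH2 was higher with WA in 6 of 6 culture pairs, but the spread between passages was large. Fitted log2 fold changes were 1.16 (SE 0.44, edgeR adjusted p = 0.0942) in MM1R and 1.05 (SE 0.42, edgeR adjusted p = 0.138) in MM1S, which did not pass the test. In the fit with passage as a block BACH2 was called higher in both lines, with a log2 fold change of 1.22 (edgeR adjusted p = 0.00177) in MM1R and 1.02 (adjusted p = 0.00376) in MM1S. It was also called in MM1R without the untreated culture of passage 4 (adjusted p = 0.0344).

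The small MAF proteins have a DNA-binding leucine zipper but no activation domain, and serve NRF and BACH factors alike as partners. MAFF, on chromosome 22 (38596774 to 38612514, plus strand, 3 exons), stood at 15.9, 13.1 and 7.58 CPM in untreated MM1R and at 22.0, 26.2 and 35.6 CPM with WA. MM1S cultures had 11.1, 19.0 and 15.7 CPM untreated and 27.1, 27.7 and 46.3 CPM with WA. The groups did not overlap, and the pair of MM1R passage 7 went from the lowest untreated to the highest WA level of its line. On the log2 scale the fold change was 1.19 (SE 0.29, edgeR adjusted p = 0.0150) in MM1R and 1.14 (SE 0.29, edgeR adjusted p = 0.0225) in MM1S. The MM1R call was lost without passage 7 of either treatment (adjusted p up to 0.0660), and the MM1S call without untreated passage 16 or 23 or WA passage 23 (up to 0.1015).

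MAFG, the most abundant small MAF mRNA in every culture, lies on chromosome 17 (79876146 to 79885611, minus strand, 3 exons). It stood at 121, 95.4 and 87.9 CPM in untreated MM1R and at 152, 154 and 198 CPM with WA. In MM1S it stood at 98.8, 104 and 86.0 CPM untreated and at 195, 149.6 and 200.3 CPM with WA. Every WA culture was above every untreated culture of both lines. The log2 fold change was 0.73 (SE 0.16, edgeR adjusted p = 0.00772) in MM1R and 0.92 (SE 0.16, edgeR adjusted p = 0.00215) in MM1S, and neither call was lost when any of the 12 libraries was left out.

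MAFK lies on chromosome 7 (1570338 to 1582679, plus strand, 3 exons), and its groups overlapped in both lines. It stood at 17.5, 19.6 and 18.4 CPM in untreated MM1R and at 21.7, 13.7 and 16.9 CPM with WA. The MM1S values were 15.9, 17.0 and 15.5 CPM untreated and 17.0, 13.1 and 16.8 CPM with WA. For MAFK the log2 fold change was -0.09 (95% confidence interval -0.44 to 0.26, edgeR adjusted p = 0.791) in MM1R and -0.05 (-0.40 to 0.30, adjusted p = 0.907) in MM1S, and the value was higher in 3 of 6 pairs and lower in 3. Exons of TMEM184A on the opposite strand cover 18.1% of the MAFK exons.

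**Figure D2:**
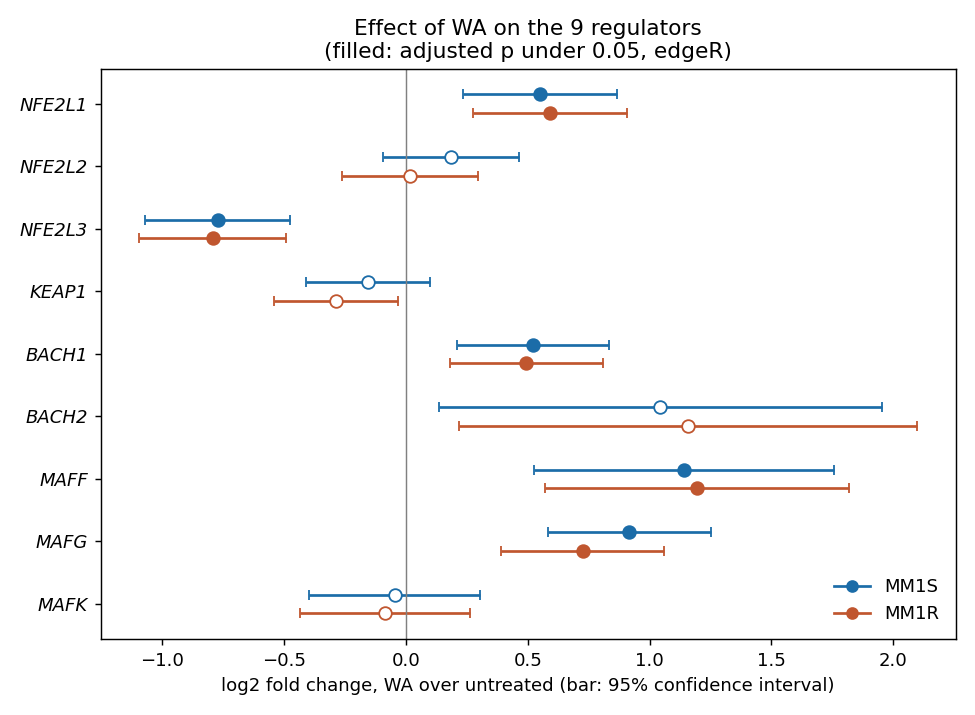
The log2 fold change of each member with WA is plotted for MM1S (blue) and MM1R (orange), with bars for the 95% confidence interval and filled points for an adjusted p under 0.05 (edgeR). The points of the lines lie close together for each gene, with MAFF at 1.14 and 1.19 and NFE2L3 at -0.77 and -0.79, and the widest bars are those of BACH2.

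The summed level of the 3 small MAF mRNAs rose from 25.7 ± 3.89 to 40.9 ± 6.10 CPM per kb (SD, n = 3) in MM1R and from 24.7 ± 2.18 to 44.2 ± 7.06 in MM1S, as a description without a test. MAFG made up 75.3% ± 2.18 of the sum in untreated MM1R and 78.3% ± 1.31 with WA, and 74.3% ± 2.60 and 78.5% ± 2.53 in MM1S. The untreated and WA cultures overlapped in the MAFG share in both lines. The share of MAFF was 8.29% ± 1.92 untreated and 12.1% ± 1.5 with WA in MM1R, and 11% ± 2.49 and 13.5% ± 2.95 in MM1S, where the cultures overlapped. The share of MAFK was 16.4% ± 2.87 untreated and 9.66% ± 2.76 with WA in MM1R, and 14.7% ± 0.618 and 7.94% ± 0.431 in MM1S. MAFK therefore became the smallest of the 3 shares in 5 of the 6 WA cultures, the exception being MM1R passage 4. With the longest transcript as length it was below MAFF in all 6 WA cultures and also in untreated MM1S passages 22 and 23.

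**Figure D3:**
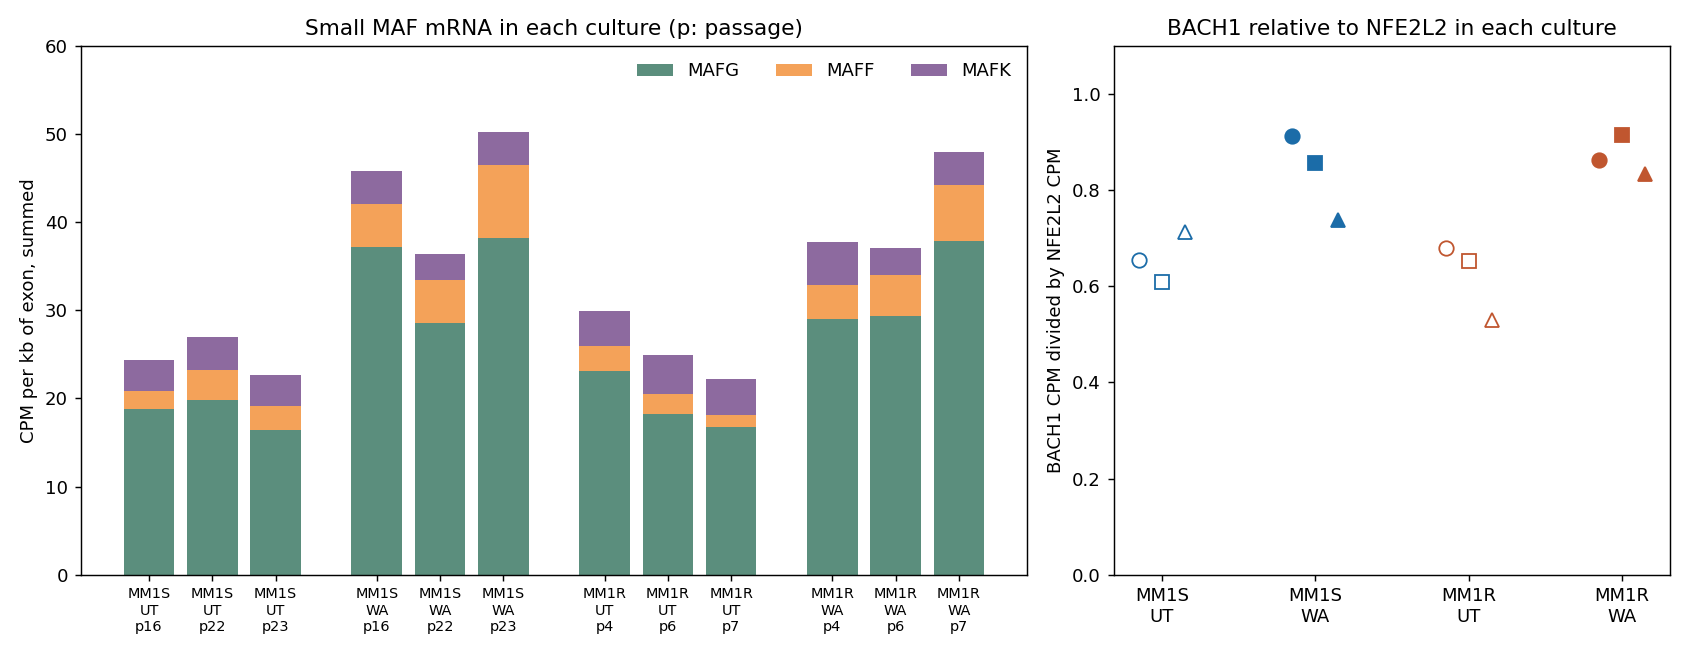
Left, stacked bars give the CPM per kb of MAFG, MAFF and MAFK in each culture, labelled by group and passage; right, points give BACH1 CPM divided by NFE2L2 CPM in each culture (open untreated, filled WA, shape by passage). The WA bars, between 36.4 and 50.2 CPM per kb, stand above the untreated bars of 22.2 to 29.9, and the WA ratios, from 0.737, stand above the untreated ones, which reach 0.712.

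Within pairs of cultures of the same passage, the size of the change varied by passage. NFE2L1, BACH1, BACH2, MAFF and MAFG were higher with WA in 6 of 6 pairs, NFE2L3 and KEAP1 lower in 6 of 6, and NFE2L2 higher in 5 of 6. In MM1R, passage 7 had the largest rise of all of NFE2L1, NFE2L2, BACH1, BACH2, MAFF and MAFG and the largest drop of KEAP1. For MAFF the log2 changes of CPM plus 0.5 were 0.46, 0.97 and 2.16 for passages 4, 6 and 7, and for MAFG they were 0.32, 0.69 and 1.17. In MM1S, passage 22 had the smallest rise of NFE2L1, BACH2, MAFF and MAFG and the smallest drop of NFE2L3 and KEAP1, while BACH1 changed by 0.52, 0.56 and 0.48 in passages 16, 22 and 23. HMOX1, the heme oxygenase gene that NRF2 and BACH1 control in opposite directions, also changed most in passage 7 of MM1R and least in passage 22 of MM1S, with 6.21, 6.39 and 6.85 in MM1R and 6.82, 5.86 and 7.31 in MM1S. The other ARE genes named below did not all share this order. SLC7A11 did, with 3.21 in passage 7 of MM1R and 0.75 in passage 22 of MM1S. NQO1 changed least in passage 7 of MM1R (0.65) and passage 23 of MM1S (0.89). GCLM changed most in passage 6 of MM1R (1.29) and passage 22 of MM1S (1.42). OSGIN1 changed most in passage 6 of MM1R (2.38) and least in passage 22 of MM1S (2.76). What differed between the passages was not tested.

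**Figure D4:**
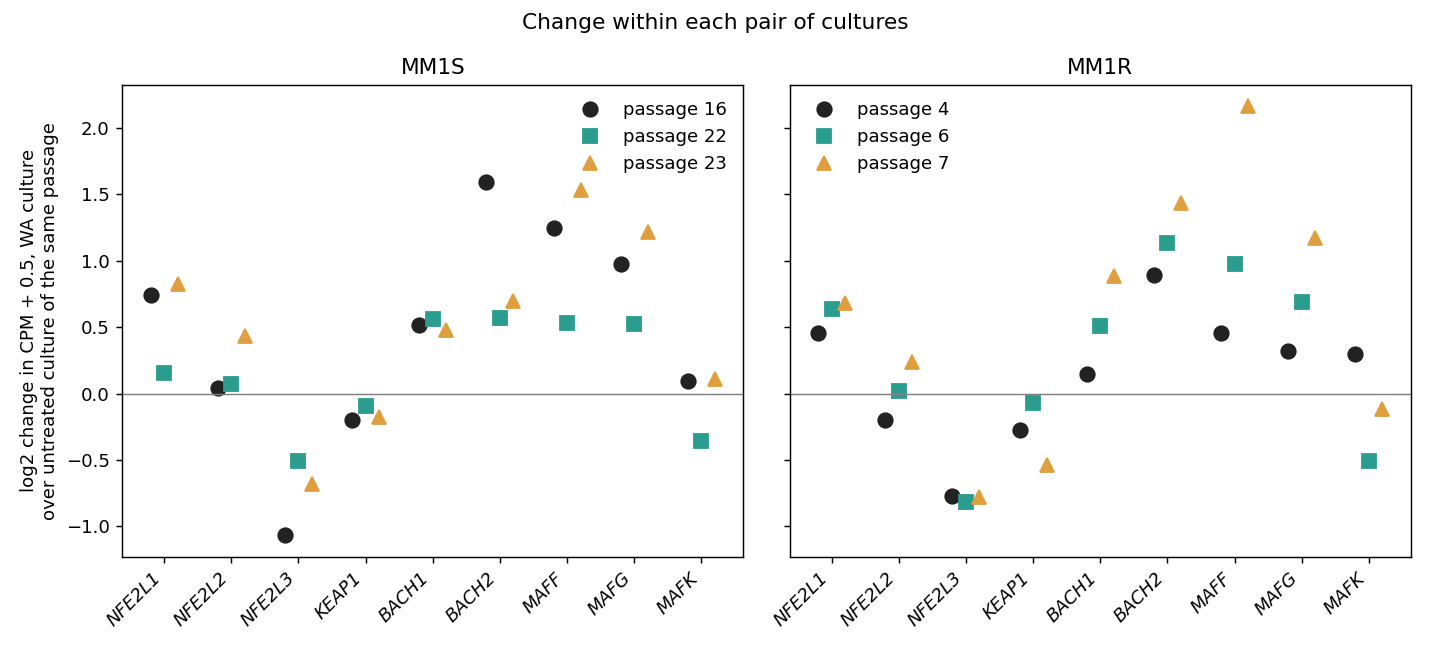
For MM1S (left) and MM1R (right) the log2 change of CPM plus 0.5 between the WA and the untreated culture of a passage is plotted for each member, with a shape and colour for each passage. Passage 7 of MM1R lies highest for MAFF (2.16), MAFG (1.17) and BACH1 (0.88), and passage 22 of MM1S lies lowest for MAFF (0.53), MAFG (0.52) and NFE2L1 (0.15).

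Between the lines, none of the 9 members was called in untreated cells or with WA, where the limits were 0.01 for the adjusted p and 1 for the size of the log2 difference. Of all genes, 2.97% passed these limits in untreated cells (1.48% higher in MM1R and 1.49% lower) and 3.04% with WA (1.63% higher and 1.41% lower). Without the limit on the fold change and at an adjusted p of 0.05, 11.9% and 12% of all genes were called and again 0 members (edgeR). Among untreated cultures 0 members had an unadjusted p under 0.05, beside 25.9% of all genes, and the log2 difference of MM1R from MM1S ranged from -0.52 (BACH2, 95% confidence interval -1.47 to 0.42) to 0.20 (MAFK, -0.15 to 0.55). With WA this held for 1 member, beside 28.0% of all genes. NFE2L2 had an unadjusted p of 0.0212, with a log2 difference of -0.34 (95% confidence interval -0.62 to -0.06, edgeR adjusted p = 0.108), and no MM1R culture reached the MM1S cultures. The cultures of MAFK did not overlap between untreated lines, nor did those of NFE2L2 and BACH1 between WA lines, beside 32.3% and 29.1% of all genes.

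The effect of WA was not shown to differ between the lines for any member. The difference in log2 fold change (MM1R minus MM1S) lay between -0.19 (MAFG, unadjusted p = 0.399) and 0.11 (BACH2, unadjusted p = 0.856), and the smallest unadjusted p was 0.373, for NFE2L2. The intervals were wide for the low genes, from -1.18 to 1.41 for BACH2 and from -0.81 to 0.92 for MAFF. By edgeR 0% of all genes were called for this difference (97 of 14085, or 0.689%, had an unadjusted p under 0.05), and DESeq2 called 1 gene. This fit did not use the pairing by passage. That share is smaller than would be found if no gene differed, so that this fit could miss differences. With passage number as a block, edgeR also called 0 genes, and the members lay between -0.18 (MAFG) and 0.20 (BACH2).

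The other genes of the NRF2 and MAF network were described by lists. Of the remaining cap'n'collar and MAF factors, 2 of 5 were tested. MAF, a large MAF proto-oncogene that translocations join to the immunoglobulin heavy chain locus in some myelomas, stood at 1394, 1054 and 892 CPM in untreated MM1R and at 694, 652 and 536 CPM with WA, and at 1350.1, 937 and 1015 and then 691, 572 and 510.1 CPM in MM1S. Its log2 fold change was -0.83 (SE 0.19, edgeR adjusted p = 0.00968) in MM1R and -0.90 (SE 0.19, edgeR adjusted p = 0.00764) in MM1S. The MM1R call was lost without the WA culture of passage 7 (adjusted p = 0.0546). NFE2 and MAFA had at most 5 reads in any culture and NRL had 0.

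Of 22 genes that control NRF2, as ligase subunits, kinases or coactivators, 21 were tested. In MM1R 2 rose and 3 fell, and in MM1S 0 rose and 1 fell, beside 14.0% and 10.5% of all genes called in either direction, with list medians of -0.06 and -0.10 on the log2 scale, beside 0.01 over all genes. PRKCD, a protein kinase C that can phosphorylate NRF2, fell in both lines, by 0.86 (SE 0.15, edgeR adjusted p = 0.00188) in MM1R and by 0.64 (SE 0.15, adjusted p = 0.0158) in MM1S, where the call was lost without untreated passage 22 or 23 or WA passage 23 (up to 0.0741). The other 4 genes called in MM1R, named after their values were seen, were the ligase scaffold CUL1 (-0.66), the kinase GSK3A (-0.35), the acetyltransferase EP300 (0.55) and the NRF2-binding helicase CHD6 (0.51), and all 4 lost the call without the untreated MM1R culture of passage 6. Some of them also lost it without untreated passage 7 or any WA culture of MM1R, or without untreated MM1S passage 22 (adjusted p up to 0.115). GSK3A lost it too with only the 6 MM1R libraries in the fit (0.0514) and without a filter on low counts (0.0931). In MM1S these 4 genes moved the same way without a call by edgeR. The log2 fold changes there were -0.50 for CUL1 (edgeR adjusted p = 0.0521), -0.24 for GSK3A (0.136), 0.38 for EP300 (0.113) and 0.445 for CHD6 (0.0503). DESeq2 called CUL1 (adjusted p = 0.0159) and CHD6 (0.0242) in MM1S. With passage number as a block, 4 rose and 8 fell in MM1R and 4 rose and 7 fell in MM1S, beside 29.1% and 24.1% of all genes called, and CUL1, GSK3A, EP300 and CHD6 were called in both lines. Between untreated lines PRKCD (log2 difference 1.44) and the NRF2 antagonist RXRA (1.21) were called higher in MM1R. SQSTM1, whose product p62 removes KEAP1, had 1 to 12 reads in a culture and was not tested. Nearly every cell expresses this gene, and the annotation behind the counts is not given in the sources used here, so that its mRNA cannot be called absent.

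AREs were read through 30 known target genes of NRF2 and BACH1, of which 27 were tested. In each line 10 rose and 0 fell, beside 7.55% of all genes higher in MM1R and 6.25% in MM1S, and 9 genes rose in both. The list had a median of 0.29 in MM1R and 0.26 in MM1S on the log2 scale, beside 0.01 over all genes. HMOX1 rose by 6.62 (SE 0.54, edgeR adjusted p = 9.25e-06) in MM1R and 6.92 (SE 0.55, adjusted p = 5.8e-06) in MM1S. OSGIN1, an oxidative stress induced growth inhibitor, rose by 2.65 and 3.64, the cystine transporter SLC7A11 by 2.25 and 1.68, the glutamate-cysteine ligase subunit GCLM by 1.1 and 1.29, and the quinone reductase NQO1 by 0.97 and 1.1. The untreated level of OSGIN1 was low, at 1.17 to 1.43 CPM in MM1R and 0.45 to 0.88 CPM in MM1S. With WA it stood at 7.47 to 9.51 CPM in MM1R and 6.4 to 9.7 CPM in MM1S.

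Not all genes of this list moved. PGD, TALDO1 and TKT, which code for enzymes of the pentose phosphate pathway, had log2 fold changes from -0.24 to 0.07 and none was called. In the fit with passage as a block TKT was called lower in MM1R. NQO1 lost its call in MM1R without untreated passage 6 or WA passage 7 (adjusted p up to 0.0701), and SLC7A11 in MM1S without untreated or WA passage 23 (up to 0.0901) or with only the 6 MM1S libraries in the fit (0.0647). PIR was called in MM1R but not in MM1S and ME1 in MM1S but not in MM1R, both named after their values were seen, and no difference between the lines was called. PIR lost its call without untreated MM1R passage 6 or WA passage 7 (adjusted p up to 0.0829), and ME1 without untreated MM1R passage 6, untreated MM1S passage 16 or 22 or WA MM1S passage 22 or 23 (up to 0.1) or with only the 6 MM1S libraries (0.067). Blocked by passage, both were called in both lines by edgeR, with an adjusted p of 0.0019 for ME1 in MM1R and 0.0486 for PIR in MM1S, whereas DESeq2 with the block did not call PIR in MM1S. Over the list the blocked fit gave 13 higher and 1 lower in MM1R and 13 higher and 0 lower in MM1S, beside 29.1% and 24.1% of all genes called. FTH1 and FTL have many processed copies in the genome that share reads with them, so their values are uncertain.

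**Figure D5:**
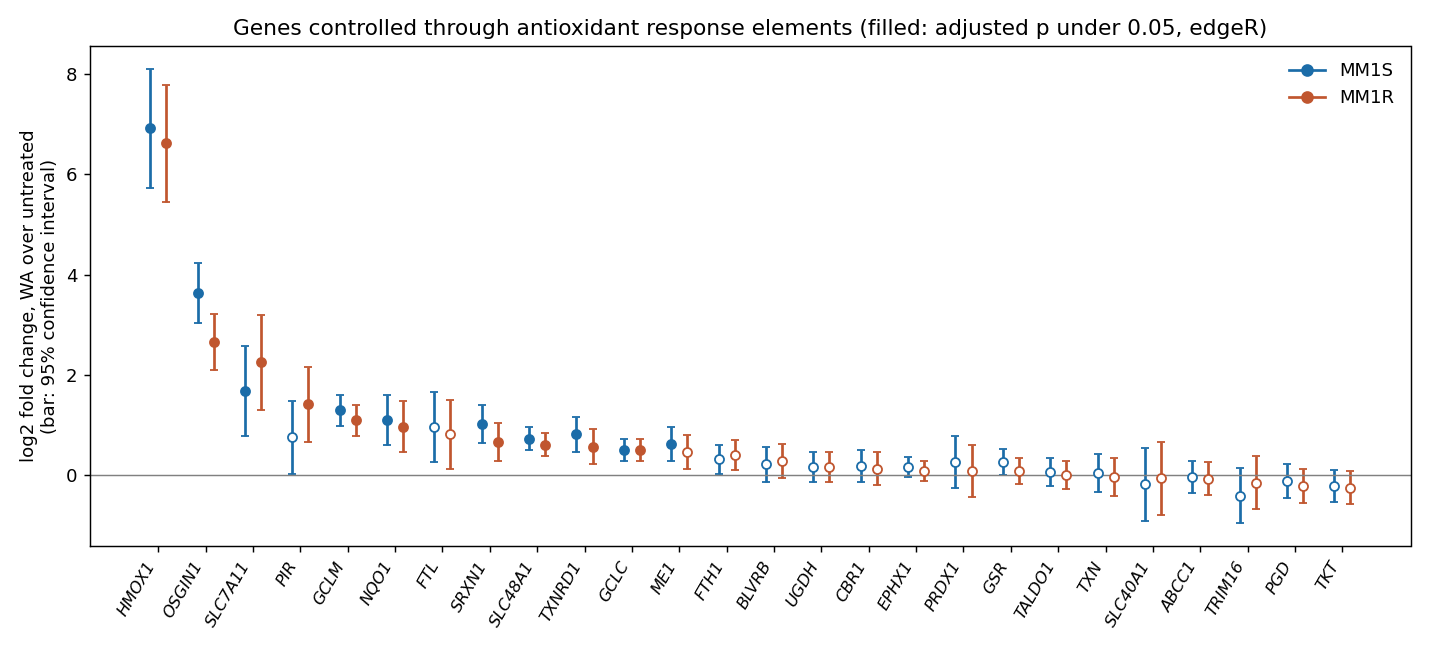
The log2 fold change with WA is plotted for tested genes of the ARE list in MM1S (blue) and MM1R (orange), ordered by the MM1R value, with bars for the 95% confidence interval and filled points for an adjusted p under 0.05 (edgeR). HMOX1 stands apart at 6.92 and 6.62, and 10 points are filled in each line, all above 0.

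Of the 10 genes that release, cleave or degrade NRF1 (among them DDI2, NGLY1 and VCP), all were tested and 0 were called in either line by edgeR. Blocking by passage, 3 of them fell in MM1R (VCP, RAD23B and SEL1L) and 1 in MM1S (SEL1L), beside 29.1% and 24.1% of all genes called, so that these shares of the list were near or below that of all genes. Of 32 proteasome genes, the known targets of NRF1, 30 were tested, 0 rose in either line and 1 fell, PSMB5 in MM1R (log2 fold change -0.42, edgeR adjusted p = 0.0230, named after its value was seen). That call was lost without untreated passage 7 or any WA culture of MM1R (adjusted p up to 0.0919). The 30 tested genes had a median of -0.16 in MM1R and -0.09 in MM1S on the log2 scale, beside 0.01 over all genes. In the blocked fit 5 fell in MM1R and 1 in MM1S, which is 16.7% and 3.33% of the list beside the same 29.1% and 24.1%. PSMB3 and PSMC4 had at most 1 read in any culture, although these subunits are needed in nearly every cell. The cause was not tested.

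Of 8 genes of the switch from B cell to plasma cell that BACH2 takes part in, 6 were tested, and 2 rose and 1 fell in each line, beside 7.55% of all genes higher and 6.46% lower in MM1R and 6.25% and 4.23% in MM1S. BCL6, the germinal centre repressor, rose by 2.55 (SE 0.64, edgeR adjusted p = 0.0182) in MM1R, from 1.04 to 1.56 CPM to 4.21 to 14.1 CPM, and by 2.73 (SE 0.64, adjusted p = 0.0163) in MM1S, from 0.723 to 2.28 CPM to 2.03 to 14.1 CPM. IRF8, a B cell interferon regulatory factor, rose by 0.67 and 0.70, and IRF4, the plasma cell counterpart, fell by 0.96 (edgeR adjusted p = 0.00323) and 0.73 (adjusted p = 0.0186). PRDM1, the plasma cell regulator that BACH2 represses, had log2 fold changes of -0.40 in each line (adjusted p = 0.0743 and 0.0861), and was called lower in both with passage number as a block. XBP1 and SPIB were tested and not called in either line, with or without the block. PAX5 had at most 3 reads in any culture. Of the 8 plasma cell markers, which include IRF4 and PRDM1, 1 was called higher and 1 lower in each line, beside the same shares of all genes. Among these markers SLAMF7 and CD38 were higher with WA in 3 of 3 pairs of each line. IRF4, PRDM1 and TNFRSF17 were lower in 3 of 3 pairs of each line.

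Several of these calls were lost when a library was left out, while the log2 fold changes kept their sign. For BCL6 they ran from 1.90 to 2.86 in MM1R and from 2.19 to 3.40 in MM1S. For IRF8 they ran from 0.62 to 0.79 in MM1R and from 0.49 to 0.83 in MM1S, and for IRF4 from -0.93 to -0.58 in MM1S. BCL6 lost its call in MM1R without untreated passage 6 or 7 or WA passage 7 (adjusted p up to 0.0852), and BCL6 and IRF4 lost theirs in MM1S without untreated passage 22 or 23 or WA passage 16 (up to 0.0871). IRF8 lost its call in MM1R without untreated passage 6 or 7 or WA passage 4 or 6 (up to 0.0736), and in MM1S without any untreated culture or WA passage 16 (up to 0.0786). With only the 6 MM1S libraries in the fit, BCL6 (adjusted p = 0.0502), IRF4 (0.0605) and IRF8 (0.0605) lost their MM1S calls as well.

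MAFG-DT, a long noncoding RNA transcribed away from the MAFG promoter, went the other way from MAFG. It stood at 7.24, 8.07 and 9.85 CPM in untreated MM1R and at 5.60, 5.01 and 6.27 CPM with WA, and at 4.66, 5.53 and 5.12 and then 3.14, 3.63 and 3.49 CPM in MM1S. It was lower in each of the 6 pairs, and the cultures did not overlap within a line. On the log2 scale the change was -0.58 in each line (edgeR adjusted p = 0.0459 in MM1R and 0.0632 in MM1S). The MM1R call was lost in 10 of the 12 fits that left out a library, that is all but those without untreated MM1R passage 4 or WA MM1S passage 16 (adjusted p up to 0.172). It was lost too without a filter on low counts, with at least 10 reads required in every library and with only the 6 MM1R libraries. MM1S was called by edgeR with passage number as a block (adjusted p = 0.0177) and by DESeq2 without it (0.0439), but not by DESeq2 with it. Untreated MM1R exceeded untreated MM1S by 0.71 on the log2 scale (edgeR adjusted p = 0.0196), which did not pass the limits between lines. Of the other transcripts named after a member, BACH1-IT2 had at most 2 reads and BACH1-IT3 and BACH2_1 had 0.

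For each member the 2 genes with the most alike log2 CPM over the 12 libraries were looked up among 12321 genes. Since all share the WA and untreated groups, the Pearson r values below are a description. The genes were FAM107B and DUSP22 for NFE2L1 (r = 0.962 for both), SLC38A1 and XPOT for NFE2L2 (0.921 and 0.913), SOX2 and FUBP1 for NFE2L3 (0.978 and 0.966), and ADIPOR1 and ATP5F1A for KEAP1 (0.914 and 0.904). They were CCDC186 and BRAF for BACH1 (0.970 and 0.966), GAB2 and PEAK1 for BACH2 (0.968 and 0.962), YES1 and SLCO4C1 for MAFF (0.973 and 0.970), ANKRD42 and KLF7 for MAFG (0.978 and 0.976), and ZNF783 and PRR22 for MAFK (0.881 and 0.865). The closest partners of MAFK were less alike than those of any other member.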

How the data were processed

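RNA of 12 cultures was extracted with a column kit and sequenced on BGISEQ-500 in paired-end mode. Per the methods and labels, reads were checked with FastQC 0.11.5 and mapped with STAR 2.7.3a to hg19. The authors deposited raw counts of reads per gene, without normalization; the annotation and strand setting are not given in the sources used here. A deposited table of normalized values was not used.

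Genes were kept by filterByExpr of edgeR 4.0.16 (minimum count 10, R 4.3.3), which left 14085, and scaled with TMM. The quasi-likelihood test used 1 model for the 12 libraries, and p-values were adjusted by Benjamini-Hochberg over all genes tested. CPM values are TMM-scaled. WA was called at an adjusted p of 0.05 and lines at 0.01 with a log2 fold change of 1, as in the study. DESeq2 1.42.0 was an alternative. Changes within pairs used CPM plus 0.5. Total counts were 17625110 to 19368343, and no replicates were duplicates, since their chi-square over its degrees of freedom was 8.06 to 44.3. Where cultures came from is given only as passage, so p-values measure the spread between these cultures. Gene positions and exon lengths are from GENCODE on GRCh37. The comparisons between groups were also run on simulated counts that held no passage effect. The difference between lines in the WA effect was not among them.

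Passage number was taken from the labels. Deviations from the group mean correlated between the untreated and WA cultures of a passage, with r from 0.221 (passage 6) to 0.427 (passage 4) in MM1R and from 0.262 (passage 22) to 0.744 (passage 16) in MM1S. Hence the pairing was accepted and a replicate block tried. For passage 22 other passages correlated more (0.419 and 0.347). The members and gene lists were chosen with earlier results of these data known. Named are all 9 members, the other family factors (some items are not reported here), up to 5 genes per list called in both lines, up to 2 called between lines, and the 2 most alike genes per member.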

Additional observations from a re-analysis of the deposited data

How the results depend on the processing

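At an adjusted p of 0.01, 2 members stayed called in each line (NFE2L3 and MAFG) in place of 5. Leaving out each library in turn gave 2 to 6 called members in MM1R and 2 to 5 in MM1S, and 0 between lines and for the difference between lines. The 2 came without passage 7 of MM1R (either treatment), and without untreated passage 16 or 23 or WA passage 23 of MM1S. With passage number as a replicate block 7 members were called in MM1R and 6 in MM1S, with edgeR and with DESeq2, through BACH2 and, in MM1R, KEAP1; it ended no call of a member. No blocked fit was possible between the lines because they share no passage number. DESeq2 and the fit without a filter gave 6 in MM1R, and the fit without a filter 6 in MM1S, all through BACH2. With only the 6 libraries compared BACH1 lost its call in MM1R, leaving 4, and in MM1S NFE2L1 lost and BACH2 gained a call. Leaving out a library, all genes called with WA numbered 950 to 2396 in MM1R and 726 to 1621 in MM1S, and between untreated lines 268 to 537 and WA lines 264 to 649. Between lines, all genes called numbered 419 (untreated) and 428 (WA) in the report, 811 and 819 without a filter, 234 and 222 with 10 reads in every library, and 1681 and 1690 at an adjusted p of 0.05. For the difference between lines 0 genes became 11 without a filter, 1 with DESeq2 and 6 with DESeq2 and the block. The count of all genes called with WA ran from 812 (adjusted p of 0.01) to 4094 (block) in MM1R, 1973 in the report, and from 556 to 3399 in MM1S, 1476 in the report. With the longest transcript as length, 4 of 9 places in the order of levels were kept in untreated MM1S, 5 in WA MM1S and 5 in untreated MM1R. DESeq2 size factors changed no call of a member.

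Values near 0 changed sign. NFE2L2 in MM1R was -0.006 without a filter and -0.001 with only the 6 libraries, and -0.061 to 0.071 when a library was left out. The difference between lines for NFE2L3 was 0.008 when every library had to hold 10 reads of a gene. Leaving out a library, that difference ran from -0.203 to 0.072 for NFE2L3, -0.195 to 0.095 for BACH1, -0.23 to 0.13 for MAFK, -0.29 to 0.62 for BACH2, -0.195 to 0.35 for MAFF and -0.17 to 0.173 for NFE2L1. For untreated lines it gave -0.069 to 0.171 for MAFG and -0.219 to 0.053 for NFE2L3, and for WA lines -0.033 to 0.321 for MAFK, -0.087 to 0.13 for KEAP1 and -0.462 to 0.022 for MAFF. For WA it gave -0.276 to 0.079 for MAFK in MM1R and -0.109 to 0.064 in MM1S. The cause was not tested.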
